A study of Mus musculus with 11 samples.

Results

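The sites compared are RFX1 and RFX2 binding peaks of mouse ependymal cells that shared at least 1 bp with each other, and RFX1 peaks that shared none with RFX2. The deposited lists of reproducible peaks held 7440 RFX1 and 1250 RFX2 peaks. They formed 1238 pairs, made of 1238 RFX1 peaks (16.6% of the RFX1 list) and 1237 RFX2 peaks (99.0% of the RFX2 list). A single RFX2 peak had 2 RFX1 partners. The other 6202 RFX1 peaks had no RFX2 partner, and 13 RFX2 peaks had no RFX1 partner. In all, 8677 of the 18008 peaks deposited for RFX1, RFX2 and RFX3 belong to the comparison.

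Chromatin immunoprecipitation with sequencing (ChIP-seq) was used to map DNA bound by each factor in wild-type ependymal cells, the ciliated cells that line the brain ventricles. Differentiation took place ex vivo, from lateral walls of OF1 mouse brain that the labels call embryonic while giving the age as P0. RFX1 and RFX2 each had 2 ChIP samples and 2 input samples of sonicated chromatin without antibody, and every group shared genotype, strain, tissue and age. A different antibody was used for each factor, and for RFX2 the lot changed between the replicates.

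The design limits what a difference between the lists can show. The authors deposited 1 merged list per factor, so every peak has 1 value per factor and no replicate error. Read numbers, pooling of animals and the rule by which a peak counted as reproducible were not given in the sources used here. Each factor also had its own ChIP and input samples. Antibody, sample, depth and binding cannot be told apart when RFX1 and RFX2 are compared. A site without an RFX2 peak is a site where none passed the authors' selection, not a site shown to be free of RFX2. The weakest peak kept had a −log10 q (the peak caller's adjusted p on a −log10 scale) of 12.03 in the RFX1 list and 18.2 in the RFX2 list. Intervals on shares below are 95% exact Clopper-Pearson intervals, which cover counting error alone.

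RFX proteins are transcription factors with a winged-helix DNA-binding domain. They bind as dimers to the X-box, an imperfect inverted repeat of short G- and C-rich arms, and the family members recognise closely similar letters. RFX2 and RFX3 are known for switching on genes of motile and primary cilia, while RFX1 is expressed widely and was first studied at viral enhancers and MHC genes.

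The sites that carry the comparison at gene starts can be shown by sequence. Promoter stretches were read from the RefSeq promoter table (GRCm38.p6), which gives 300 bases per start, 250 before it and 50 after. The search covered the letters GTTNCC and GGNAAC with 1 to 3 bases between them, where N is any base, and the pair reads the same on both strands. The 4 promoters of best RFX1 rank that held such a pair before the start and had both factors are shown next, 5′ to 3′ along the gene, with the pair and its spacer in capitals. They lie at chr2:134644190-134644324 (minus strand), chr5:139460614-139460747 (minus), chr11:87853131-87853214 (plus) and chr6:34780351-34780431 (plus), and end at most 60 bases beyond the pair or at the start.
Tmx4: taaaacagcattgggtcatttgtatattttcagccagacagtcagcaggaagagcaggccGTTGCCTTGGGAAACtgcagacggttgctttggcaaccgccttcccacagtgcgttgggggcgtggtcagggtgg
3110082I17Rik: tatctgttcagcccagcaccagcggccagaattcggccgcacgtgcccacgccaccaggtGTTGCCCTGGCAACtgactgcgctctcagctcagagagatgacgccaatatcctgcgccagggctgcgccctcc
Mks1: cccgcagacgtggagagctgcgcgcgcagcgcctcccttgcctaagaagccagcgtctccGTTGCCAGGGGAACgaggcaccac
Agbl3: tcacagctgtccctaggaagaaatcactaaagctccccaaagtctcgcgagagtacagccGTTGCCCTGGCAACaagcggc
Tmx4 encodes a thioredoxin-related membrane protein, Mks1 a transition zone protein mutated in Meckel syndrome, and Agbl3 a deglutamylase of the cytosolic carboxypeptidase family. Their RFX1 peaks ranked 2, 70, 84 and 93 by −log10 q in the order shown, and their RFX2 peaks ranked 4, 414, 401 and 216. Except at Tmx4, where the RFX1 and RFX2 summits were 24 and 16 bp from the middle of the pair, the RFX1 summit was within 1.5 bp and the RFX2 summit within 7.5 bp of it. The Tmx4 stretch also holds gttgctttggcaac after the capitals, which the search left out for the T that ends its first arm. Both summits at Tmx4 fell within that second repeat.

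The 4 best promoters with the same letters and RFX1 but no RFX2 peak are shown for contrast. They lie at chr7:4137403-4137479 (plus strand), chr15:103272638-103272716 (plus), chr11:58801961-58802036 (minus) and chr6:30693806-30693940 (minus).
Leng8: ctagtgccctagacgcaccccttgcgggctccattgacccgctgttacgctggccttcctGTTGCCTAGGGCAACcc
Copz1: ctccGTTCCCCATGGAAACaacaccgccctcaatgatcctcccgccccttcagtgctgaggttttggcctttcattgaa
Fam183b: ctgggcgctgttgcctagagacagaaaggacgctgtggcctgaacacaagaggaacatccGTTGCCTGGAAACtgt
Cep41: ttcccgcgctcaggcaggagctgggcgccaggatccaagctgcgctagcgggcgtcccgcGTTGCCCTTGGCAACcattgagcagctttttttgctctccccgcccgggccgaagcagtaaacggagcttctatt
Cep41 encodes a centrosomal and ciliary protein mutated in Joubert syndrome, and Copz1 a subunit of the COPI vesicle coat. Their RFX1 ranks were lower, at 537 for Leng8, 617 for Copz1, 668 for Fam183b and 675 for Cep41. The RFX1 summit was 2, 1, 23 and 25 bp from the middle of the pair. Promoters of both sets were chosen for holding the letters, so the examples do not compare how often the letters occur.

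A looser pair, GTNNCC and GGNNAC with the same spacers, covers arms with 1 more free letter. The best-ranked promoters that held only the looser pair, before the start, are shown, with an RFX2 peak at Mapre3 (chr5:30814428-30814561, plus strand) and Ttll10 (chr4:156050818-156050890, minus), and without at Smpd2 (chr10:41490368-41490501, minus) and Pak4 (chr7:28598185-28598272, minus).
Mapre3: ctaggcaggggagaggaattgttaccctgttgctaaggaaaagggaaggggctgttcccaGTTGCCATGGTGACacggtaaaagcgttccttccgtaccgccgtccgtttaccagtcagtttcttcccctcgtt
Ttll10: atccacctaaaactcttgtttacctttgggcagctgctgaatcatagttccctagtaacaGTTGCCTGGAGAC
Smpd2: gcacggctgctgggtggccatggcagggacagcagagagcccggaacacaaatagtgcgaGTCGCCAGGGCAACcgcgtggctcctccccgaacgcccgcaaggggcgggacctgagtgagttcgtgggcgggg
Pak4: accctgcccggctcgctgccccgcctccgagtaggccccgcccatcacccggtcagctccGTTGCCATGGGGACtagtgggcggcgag
Mapre3 encodes a protein of microtubule plus ends, Ttll10 an enzyme of the tubulin tyrosine ligase-like family, Smpd2 a neutral sphingomyelinase and Pak4 a p21-activated kinase. RFX1 fold enrichment, the authors' ratio of ChIP signal to background at a peak, was 17.9 at Mapre3, 24.9 at Ttll10, 20.3 at Smpd2 and 17.9 at Pak4. RFX2 fold was 23.1 at Mapre3 and 20.5 at Ttll10. By fold, RFX1 was thus as enriched at Smpd2 and Pak4, which had no RFX2 peak, as at Mapre3, which had a strong one. It was less enriched there than at Ttll10. By −log10 q, the RFX1 peaks of Mapre3 and Ttll10 ranked 22 and 24, ahead of those of Smpd2 and Pak4 at 91 and 218. At Mapre3 the RFX1 and RFX2 summits were 41.5 and 66.5 bp from the middle of the capitals, so neither fell on them. At Ttll10 these distances were 2 and 5 bp. The RFX1 summit was 1.5 bp away at Smpd2 and 3.5 bp at Pak4.

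Over all promoters with a high-rank RFX1 peak, the strict pair was more frequent where RFX2 also had a peak, and the looser pair was not. A peak was called high-rank when it was among the best 1250 RFX1 peaks by −log10 q, the length of the RFX2 list. Of 256 promoters with a high-rank RFX1 summit and RFX2, 38 held the strict pair (14.8%, interval 10.7 to 19.8). Of 160 with a high-rank RFX1 summit and no RFX2, 6 did (3.75%, 1.39 to 7.98). Across all 32817 tabled promoter windows the share was 0.777%. The looser pair was at 39.1% and 40% of the 2 sets, against 3.49% of all windows. GTTNCC or GGNAAC alone was at 85.9% and 76.9%, against 45.4% of all. Within RFX1 ranks 251 to 750, the strict pair was at 14.6% (9.03 to 21.9) with RFX2 and 6.94% (2.29 to 15.5) without. In those ranks the intervals overlap. Over RFX1 peaks of any rank, the strict pair was at 14.2% of 288 promoters with RFX2 (10.4 to 18.8) and 6.49% of 786 without (4.87 to 8.44), and the looser pair at 38.5% (32.9 to 44.4) and 27.2% (24.1 to 30.5). These 2 sets differ in RFX1 rank: 256 of the 288 promoters with RFX2 had a high-rank summit, against 160 of the 786 without. Among RFX1 peaks outside the best 1250, the looser pair was at 34.4% of 32 promoters with RFX2 (18.6 to 53.2). Without RFX2 it was at 24.0% of 626 (20.7 to 27.5), and these intervals overlap.

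At the promoters that held these letters, most summits of both factors lay near them. At the 41 promoters with the strict pair and both peaks, the median distance from the middle of the pair was 5.5 bp for the RFX1 summit and 12.5 bp for the RFX2 summit. Within 25 bp were 37 of 41 RFX1 summits (90.2%) and 30 of 41 RFX2 summits (73.2%). The RFX1 summit was the nearer of the 2 in 27 of 41 (65.9%, 49.4 to 79.9). With the looser pair it was nearer at 71 of 111 promoters (64.0%, 54.3 to 72.9). At 51 promoters with the strict pair and RFX1 alone, the RFX1 median was 9.5 bp.

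The ranks of the partners followed each other loosely. Rank 1 is the highest −log10 q of a list. All of the best 50 RFX1 peaks had an RFX2 partner, as did 99 of the best 100, 237 of the best 250 (94.8%), 445 of the best 500 (89.0%) and 856 of the best 1250 (68.5%). Having an RFX2 partner did not place a site equally high in both lists: 6 pairs were in the best 10 of both, 28 in the best 50 and 56 in the best 100. Over the 1238 pairs Spearman's rho was 0.587 for −log10 q and 0.423 for fold enrichment. Both peaks of a pair lie on the same sequence in the same cell type, so these are descriptions without a p-value. Paired RFX1 peaks had a median rank of 767.5 of 7440, and the lowest-ranked was at 6645.

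Several of the strongest pairs lay far from known gene starts. The pair with the best sum of percentile ranks was 11264 bp from the start of Fra10ac1, a gene named for a fragile site, at chr19:38235155-38235745 in the RFX1 list. It ranked 7 for RFX1 with a fold of 34.9, and 2 for RFX2 with a fold of 44.7. The pair near Matn1, which encodes the cartilage protein matrilin 1, ranked 9 and 3, with folds of 28.7 and 37.7, and was 226872 bp from that start. The pair near Grin2a, an NMDA receptor subunit gene, ranked 3 and 7, and its 2 summits fell on the same base. The 10 best pairs included those at Tmx4 and 1700094D03Rik, which were at a start. The best RFX2 peak of all lay inside Tox2, a gene of an HMG-box protein, where the RFX1 peak ranked 74. There the fold was 14.1 for RFX1 and 34.5 for RFX2, and the RFX2 peak was 2.31 times as wide.

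At most pairs the RFX2 fold was below the RFX1 fold. The median fold was 12.9 for RFX1 (quartiles 10.5 and 16.5) and 9.97 for RFX2 (8.18 and 12.7). The ratio of RFX2 to RFX1 fold had a median of 0.794 (quartiles 0.630 and 1.0), and RFX2 was above RFX1 in 314 of 1238 pairs (25.4%, 23 to 27.9). The folds come from separate ChIPs of unknown depth, so the ratio orders pairs among themselves and does not compare the amounts of the factors on DNA.

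Over all pairs, those at gene starts had a lower ratio of RFX2 to RFX1 fold. A start is a summit within 1 kb of a tabled start, or of either end of a gene for which the table gives no start. Of the pairs, 400 were at a start, 475 inside a gene and 363 outside genes. The median fold ratio was 0.691 at starts, 0.827 inside genes and 0.850 outside. Median RFX1 fold hardly differed by position (13.1, 12.8 and 12.8), while median RFX2 fold was 8.77, 10.4 and 10.4. RFX2 was above RFX1 in 15.8% of pairs at starts (12.3 to 19.7) and in 30.0% elsewhere (26.9 to 33.2). When both peaks were ranked among the 1238 pairs, the RFX2 rank was the better in 28.0% at starts (23.7 to 32.7) and 62.4% elsewhere (59.0 to 65.7). Ranked by fold, the same shares were 37.0% (32.3 to 41.9) and 57.8% (54.3 to 61.1). By bands of 250 RFX1 ranks, the median ratio was lower at starts than elsewhere in the best 3 bands (0.643 against 0.793, 0.620 against 0.670 and 0.687 against 0.718). It was higher at starts at ranks 751 to 1000 (0.804 against 0.751) and 1001 to 1250 (0.842 against 0.827), with 33 and 23 pairs at starts. The median RFX2 peak ranked lower at starts in all 5 of these bands by −log10 q. Rank numbers ran from 241.5 against 96 in the best band to 849 against 675 in the last. This order depended on the measure of RFX1 rank. Among pairs with an RFX1 peak in the best 1250 by fold, the median RFX2 rank was 457 at starts and 499 elsewhere. At fold ranks 1 to 250 it was 250 against 229. By RFX2 fold, the median RFX2 rank over that best 1250 was 739 at starts and 401 elsewhere. The RFX3 list, not used to choose the pairs, gave a like pattern of fold ratios. Over pairs with an RFX3 partner, the RFX3 to RFX1 fold ratio had a median of 0.461 at starts, 0.918 inside genes and 1.01 outside. With the RFX1 list shortened to 1250 peaks, the difference between starts and the rest fell from −0.149 to −0.0668.

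**Figure D1:**
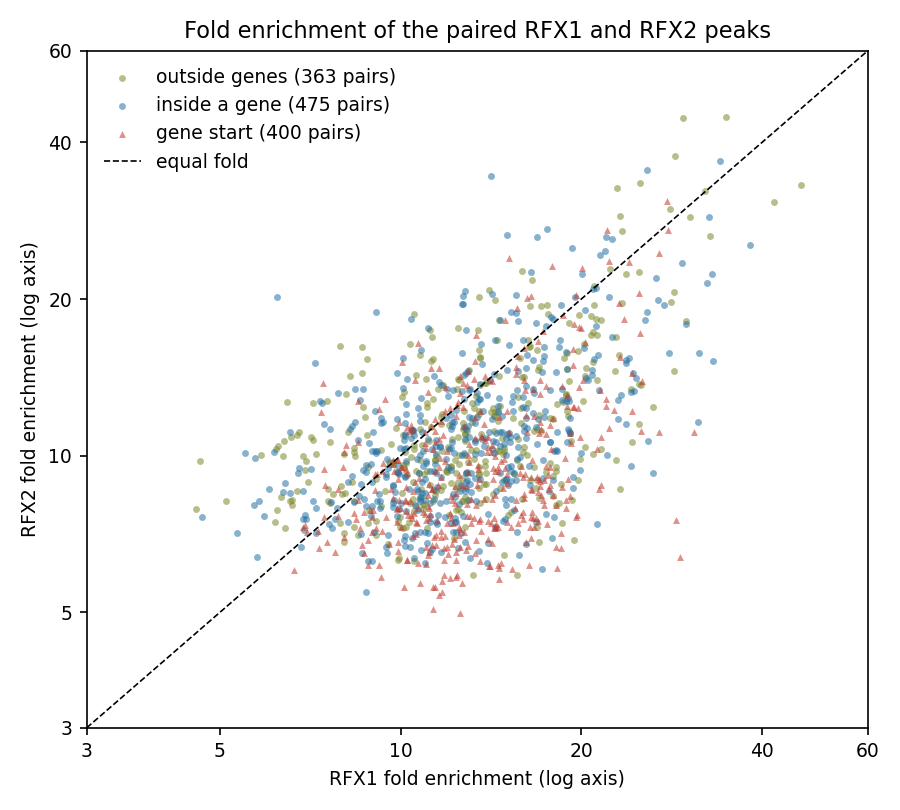
Each point is 1 of the 1238 pairs, with the RFX1 fold enrichment of the pair on the horizontal log axis and the RFX2 fold on the vertical log axis; triangles are pairs at gene starts and circles are pairs inside genes or outside them. Most triangles lie under the dashed line of equal fold, where the median ratio was 0.691, and more circles cross it.

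The pairs that differed most in percentile rank are given as a description. The percentiles come from lists of 7440 and 1250 peaks, so a low-ranked partner in the short RFX2 list sets 1 extreme. The 10 pairs whose RFX2 percentile rank was furthest above that of RFX1 were all away from starts. Their RFX1 peaks were all outside the best 1250, where 10.5% of the 382 paired RFX1 peaks were at a start. The ranking thus left little room for starts, and their absence is not a separate result. The 10 pairs included 2 neighbouring ones inside Rfx4, a gene of the same family, at chr10:84766763-84767096 and chr10:84767169-84767487. These 2 RFX1 peaks ranked 2798 and 2263 with folds of 7.21 and 10.4, and their RFX2 partners ranked 128 and 137 with folds of 15.1 and 18.3. Both RFX2 summits were 1 bp from the RFX1 summit. The others included the weaker RFX1 partner of the RFX2 peak that spanned 2 RFX1 peaks, with Traf1 as its nearest start, and pairs near or in Hsf2, Hdgfl1, Taok1, Tceal1, Tnfsf10, Mettl21a and Ptprn2. Near Hsf2, a heat-shock factor gene 359051 bp away, RFX1 ranked 5315 with a fold of 7.54 and RFX2 ranked 588 with a fold of 12.8. At Ptprn2, a receptor phosphatase gene, the RFX1 peak ranked 4709 and had no RFX3 partner.

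The 10 pairs at the other extreme were all at a start, and their RFX2 peaks ranked between 1196 and 1250 of 1250. Of the 856 paired RFX1 peaks in the best 1250, 42.1% were at a start. At Cyth2, a gene of an ARF guanine nucleotide exchange factor, RFX1 ranked 211 with a fold of 18.5 and RFX2 ranked 1241 with a fold of 6.66. At Prkar1a, a protein kinase A regulatory subunit gene, the folds were 18.5 and 7.09. Wdr78, now known as a component of the dynein f complex of motile cilia, had folds of 12.5 and 4.99. The rest were Cyp46a1, Lrrc46, Sdccag8, Shq1, Gemin8, U2af2 and Eif4a3. Genes of RNA handling (U2af2, a splicing factor, and Eif4a3, an exon junction helicase) and of cilia (Sdccag8, a centriolar protein, and Wdr78) were both present. These names describe the extremes that the ranking chose.

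Within pairs, RFX1 and RFX2 peaks were of like width, with medians of 427 and 417 bp. Over the whole lists the medians were 319 bp for RFX1 and 416.5 bp for RFX2. The RFX2 to RFX1 width ratio had a median of 0.980 (quartiles 0.822 and 1.15), and RFX2 was the wider in 46.4% of pairs (43.6 to 49.3). The relative width moved with the strength of the RFX2 peak. In the 310 pairs with the best RFX2 −log10 q, RFX2 was wider in 77.1% and the median ratio was 1.13. In the following sets of 309, 310 and 309 pairs RFX2 was wider in 50.8%, 32.3% and 25.6%. Width and −log10 q come from the same signal track and are not independent measures. RFX2 was wider in 31.3% of pairs at starts, 53.1% inside genes and 54.5% outside. The ratio ran from 0.466 at U2af2 to 4.16 at the second RFX1 partner of the RFX2 peak inside Hc, a complement component gene with Traf1 as the nearest start.

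That RFX2 peak, at chr2:34993057-34993963, spanned 2 RFX1 peaks. The stronger RFX1 peak ranked 154 with a fold of 22.2 and had its summit 3 bp from that of RFX2. The weaker ranked 6645 with a fold of 6.23 and had its summit 451 bp from that of RFX2. The RFX2 list placed 1 summit there, on the stronger site.

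Summits of the pairs coincided closely, with a median distance of 12 bp. They were within 10 bp in 46.4% of pairs, within 25 bp in 75.6% (73.1 to 78.0), within 50 bp in 94.0% and within 100 bp in 98.8%, and on the same base in 46 pairs. The shift had no direction: the RFX2 summit was at the higher coordinate in 48.4% (45.6 to 51.2) and at the lower in 47.9% (45.1 to 50.7). Along the gene, at 351 pairs at a tabled start, RFX2 was downstream of RFX1 in 48.7% and upstream in 47.9%. There the median RFX1 summit was 38 bp and the median RFX2 summit 45 bp upstream of the start. The median distance was 10 bp in the 310 pairs of best RFX2 −log10 q and 15 bp in the lowest 309. It was 11.5 bp at starts, 12 bp inside genes and 12 bp outside.

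**Figure D2:**
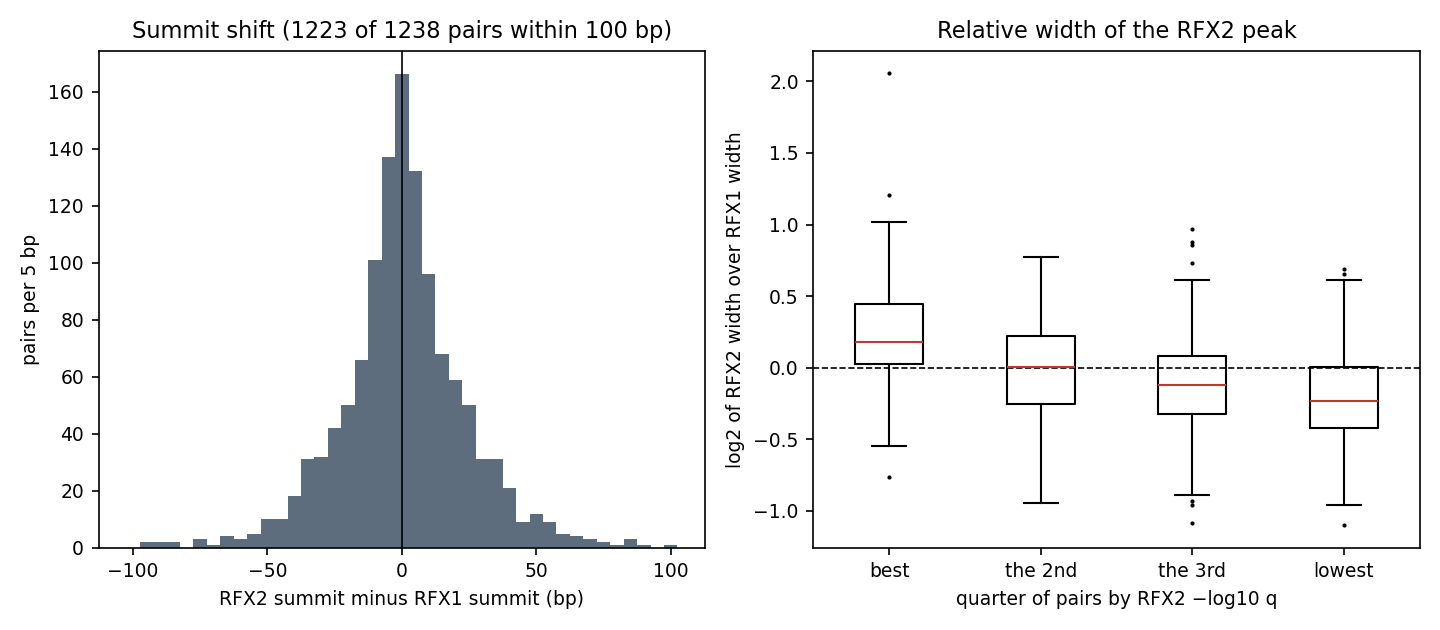
The left panel counts pairs by the RFX2 summit position minus the RFX1 summit position in bp, for the 1223 pairs within 100 bp. The right panel shows the log2 ratio of RFX2 to RFX1 peak width in 4 sets of 309 or 310 pairs by RFX2 −log10 q, with boxes at the quartiles, a line at the median, whiskers to at most 1.5 times the box height and single pairs beyond them as dots. Shifts centre on 0, and the relative width of RFX2 falls from the best set to the lowest.

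A few pairs had distant summits. The largest shifts after the weaker site at Hc were 436 bp inside Dlg4, a postsynaptic scaffold gene, 378 bp near Otud1, a deubiquitinase gene, 266 bp at the start of Sec16a, a gene of endoplasmic reticulum exit sites, and 261 bp inside Megf11. At Dlg4 both peaks were wide (950 bp for RFX1 and 932 bp for RFX2) and ranked 132 and 112. The rule of 1 shared bp was never met narrowly. The smallest overlap was 199 bp, near Sik1, and the closest unpaired RFX1 peak was 41 bp from an RFX2 peak, near Eef1akmt2.

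Among the high-rank RFX1 peaks, 394 of 1250 (31.5%) had no RFX2 partner. Their median RFX1 fold was 12.6, against 14.5 for the 856 with RFX2, and their median rank was 895.5 against 477.5. Their median distance to an RFX2 peak was 394151 bp, and 3 of them had such a peak within 1 kb. At the limit, ranks 1250 and 1251 had a −log10 q of 71.33 and 71.31. Nearly all of these sites were in the RFX3 list: 387 of 394 (98.2%) had an RFX3 partner, against 852 of 856 (99.5%) with RFX2. Over all RFX1 peaks 74.2% had RFX3. Median RFX3 rank was 1917 at the high-rank peaks without RFX2 and 718.5 at those with it, and median RFX3 fold was 5.68 and 8.38. Among lower-ranked RFX1 peaks, 67.4% without RFX2 and 96.9% with it had RFX3.

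At equal rank by −log10 q, an RFX1 peak at a gene start had an RFX2 partner less often than one elsewhere. Within the high-rank peaks the share was 61.1% at starts (57.1 to 65.1), 76.9% inside genes (72.3 to 81.1) and 72.5% outside (67.0 to 77.6). From the best to the fifth band of 250 ranks, it fell at starts through 92.4%, 78.9%, 51.2%, 37.1% and 25%. Inside genes it fell through 100%, 84.6%, 82.4%, 72.2% and 56.5%. Outside genes it was 94.6%, 97.4%, 81.1%, 53.5% and 53.0%. Starts thus had the lowest share in each band, though not all intervals were apart. The intervals at starts and inside genes overlap at ranks 1 to 250 and 251 to 500. Those at starts and outside genes overlap at ranks 1 to 250 and 751 to 1000. Read from the other side, 229 of the 394 high-rank peaks without RFX2 were at a start (58.1%, 53.1 to 63.0), against 360 of 856 with it (42.1%, 38.7 to 45.4). Over all 7440 RFX1 peaks, of which 24.0% were at a start, the order was opposite: 32.3% with RFX2 and 22.3% without.

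This difference depended on the measure of rank. High-rank peaks at starts had a lower RFX1 fold (median 12.9) than those inside genes (14.6) or outside (14.8). Among the best 1250 RFX1 peaks by fold, 63.0% at starts (58.1 to 67.8) and 58.4% elsewhere (55 to 61.7) had RFX2. In that ranking 33.3% of the peaks with RFX2 and 29.1% of those without were at a start. Among the 880 peaks in the best 1250 by both measures, 67.2% at starts (62.1 to 72.0) and 78.2% elsewhere (74.4 to 81.7) had RFX2. The lower share at starts was thus seen by −log10 q and among peaks high in both measures, and not by fold alone.

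**Figure D3:**
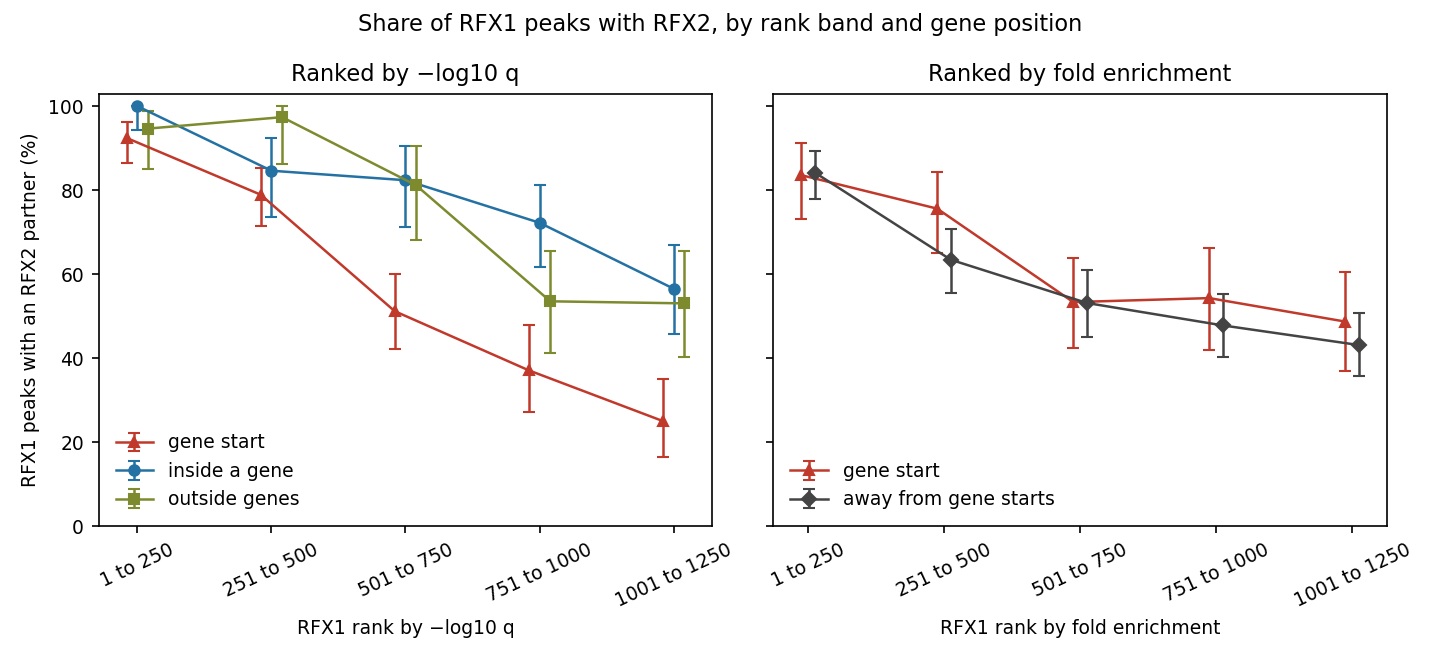
The share of RFX1 peaks with an RFX2 partner is plotted in 5 bands of 250 RFX1 ranks, by −log10 q on the left and by fold enrichment on the right, with separate lines by gene position and bars of 95% exact binomial intervals. On the left the line of gene starts lies under the others in every band, with intervals that overlap those of another position in some bands. On the right the lines for starts and for peaks elsewhere have overlapping intervals in every band.

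The 229 high-rank RFX1 peaks at a start without RFX2 served 266 protein-coding genes, or 1.22% of the 21887 in the table. Of these genes, 264 had no RFX2 summit at any tabled start. Of the 229 peaks, 37 (16.2%, 11.6 to 21.6) lay at the starts of 2 or more genes. The share was alike for high-rank peaks at a start with RFX2, at 62 of 360 (17.2%, 13.5 to 21.5). The best of the 229 peaks, at chr10:41490160-41490692, lay 6 bp from a start of Ppil6, a cyclophilin-like gene, and 93 bp from a start of Smpd2. It ranked 91 and had a fold of 20.3 for RFX1 and 6.55 for RFX3. Dync2li1, the light intermediate chain of the dynein that drives retrograde transport in cilia, ranked 177 with a fold of 20 for RFX1 and 11.8 for RFX3. Its RFX1 summit was 16 bp from the gene end, and the nearest RFX2 peak was 463744 bp away. Mafa, an insulin gene activator, ranked 182 with an RFX1 fold of 19.9. Dym, mutated in a skeletal dysplasia, ranked 183 with a fold of 21.5. Cabin1, a calcineurin-binding protein gene, ranked 196 with a fold of 14.4.

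The remaining 15 of the 20 best were Pak4, Fam229b, Otub1, Zfp287, Gtf2f1, Pik3r2, 9530077C05Rik, Pold2, Fam151b, Ccdc191, Spout1, Galk2, Sf3b5, Catip and Aspm. Gtf2f1 encodes a subunit of the general transcription factor TFIIF, Pold2 a subunit of DNA polymerase delta, and Sf3b5 a subunit of the splicing factor SF3B. RFX1 fold was 14.2 at Gtf2f1, 17.2 at Pold2 and 16.0 at Sf3b5, and RFX3 fold was 5.09, 3.40 and 4.78. Aspm, a spindle protein gene, had an RFX1 fold of 21.5 and an RFX3 fold of 5.01. Catip encodes a protein of ciliogenesis, with an RFX1 fold of 15.5 and an RFX3 fold of 9.68. All 20 had an RFX3 partner.

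Away from starts, the best RFX1 peak without RFX2 ranked 150 and was 7654 bp from Tlcd3b. A wide peak (760 bp, chr14:103898778-103899537) was 55566 bp from Ednrb, the endothelin receptor B gene. It ranked 213 with a fold of 23.3 for RFX1 and 35.5 for RFX3, and the nearest RFX2 peak was 11622 bp away. Inside Dnah5, the outer arm dynein heavy chain gene, a peak 48855 bp from the start ranked 429 with a fold of 22.8. The peaks inside Jund, 1047 bp from its tabled start, and beside Fbxw7, 1025 bp from its start, were just beyond the 1 kb window. The other 5 were near or in Ssh3, Zbtb46, Myof, Bspry and Inpp5a.

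The 13 RFX2 peaks without an RFX1 partner were unlike the pairs. None was at a gene start. The best, 368693 bp from Arid1b, ranked 13 of 1250 with a fold of 30.5 and had neither RFX1 nor RFX3, with the closest RFX1 peak 109040 bp away. The others are named by the nearest start, which was mostly distant. The peak 1019466 bp from Bcl11a ranked 239 with a fold of 15.5, and the peak 131007 bp from Pou4f1 ranked 257 with a fold of 11.8. A peak 2348831 bp from Lrrc4c ranked 284 with a fold of 3.18, and one 26238 bp from Ly6c2 ranked 538 with a fold of 3.61. The RFX2 list held 6 peaks with a fold under 4, and all 6 were among these 13. Of the 13, 3 had an RFX3 partner.

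Ciliary genes were examined by what their starts held, in 11 lists with 229 matched genes, chosen with earlier results of these data known. At the start, 65 had a pair, 26 had a high-rank RFX1 peak without RFX2, 80 had a lower-ranked RFX1 peak without RFX2 and 58 had no RFX1 peak. Over all 21887 protein-coding genes, 2002 (9.15%) had RFX1 at the start, 462 (2.11%) had a pair and 1540 (7.04%) had RFX1 without a pair. Of the genes with RFX1, 38.0% of ciliary genes (30.7 to 45.7) and 21.7% of other genes (19.8 to 23.6) had a pair, against 23.1% of all. The ciliary genes also had stronger RFX1 peaks, with a median best rank of 1250 against 2328. Among genes whose best RFX1 peak was in the best 1250 by −log10 q, 60 of 86 ciliary genes (69.8%, 58.9 to 79.2) and 362 of 600 others (60.3%, 56.3 to 64.3) had a pair. By fold the shares were 73.3% (60.3 to 83.9) and 62.2% (57.2 to 67.1). At like RFX1 rank the intervals thus overlap.

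The machinery of transport within cilia was split between the classes. In complex A, Ift122 and Wdr35 had a pair, and Ift140, Wdr19 and Ift43 had a lower-ranked RFX1 peak alone. In complex B, 5 of 17 had a pair, led by Ift22 (RFX1 fold 17.5, RFX2 fold 11), Cluap1, Ift57 and Ttc26. Ift81, which binds tubulin cargo, had a high-rank RFX1 peak with a fold of 16.8 and no RFX2 peak, as did Ttc30b with a fold of 14.4. Among the motors, Dync2h1, the dynein heavy chain of retrograde transport, had folds of 19.4 for RFX1 and 15.0 for RFX2. Its partner Dync2li1 had RFX1 at a fold of 20 and no RFX2 peak. Other subunits of that motor had lower RFX1 folds: 11.3 at Wdr34 and 12.1 at Tctex1d2, both with RFX2, and 10.8 at Wdr60 and 9.77 at Dynlrb2, both without.

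The BBSome, which carries membrane proteins in cilia, was also split between the classes. Bbs1 (chr19:4906407-4906837) had folds of 19.4 for RFX1 and 16.0 for RFX2, with summits 22 bp apart. Lztfl1, Arl6, Bbs5 and Bbs12 also had a pair; Bbs12 was named after its values were seen. Bbs9 and Bbs4 had high-rank RFX1 peaks with folds of 10.9 and 11.3 and no RFX2 peak. At Bbs12, RFX1 had a fold of 12.5 and RFX2 a fold of 6.69. RFX1 fold ran from 12.5 to 19.4 at the 5 paired members and from 6.21 to 11.3 at the 6 members with RFX1 alone, so the classes did not overlap.

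In the transition zone, the gate at the ciliary base, 7 of 24 genes had a pair. Tctn2 had folds of 17.1 for RFX1 and 11.6 for RFX2, Tmem138 19.2 and 10.6, and B9d1 11.8 and 13.5. B9d1, named after its values were seen, was the only gene of the 7 with the higher fold for RFX2. Mks1, whose promoter is shown above, had folds of 18.9 and 7.92. Tmem216 and Tmem107 had high-rank RFX1 peaks alone, with folds of 13.3 and 10.6. Tmem138 and Tmem216 are neighbouring genes that are known to be regulated together, and here only the peak at Tmem138 had an RFX2 partner.

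Genes of ciliary motility followed. Of 25 dynein arm and docking genes, 4 had a pair and 4 a high-rank RFX1 peak alone, and of 15 dynein assembly factors 6 and 3. Dnaaf3, an assembly factor, had folds of 24.3 and 12.2, and Cfap298 had 12.6 and 14.2. Zmynd10 and Daw1, also of this list, had RFX1 folds of 11.1 and 14.9 with no RFX2 peak. Dnah12, an inner arm heavy chain, had an RFX1 peak of rank 715 with a fold of 22.6 and an RFX3 fold of 29.4, and no RFX2 peak. Of 43 radial spoke, nexin-dynein and central pair genes, 17 had a pair. Cfap65 had folds of 27.9 and 27.2 there, and Cfap57 20.1 and 14.0. Cfap61 and Cfap43 had RFX1 alone at folds of 13.3 and 12.8. Among 26 microtubule inner proteins and tektins, 9 had a pair, led by Enkur with 24.0 and 23.5.

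Of 33 basal body and centriole genes, 7 had a pair and 3 a high-rank RFX1 peak alone. Odf2, of the appendages of the mother centriole, had folds of 14.2 and 8.24. Sclt1, of the distal appendages, had an RFX1 fold of 19.6, above that of each of the 7 paired genes, and no RFX2 peak. None of the 17 genes of small GTPases and lipidated cargo had a pair, while 8 had RFX1 (0 of 8, interval 0 to 36.9%). Rab28 and Rabl2 were the high-rank ones, with RFX1 folds of 10.3 and 8.44.

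**Figure D4:**
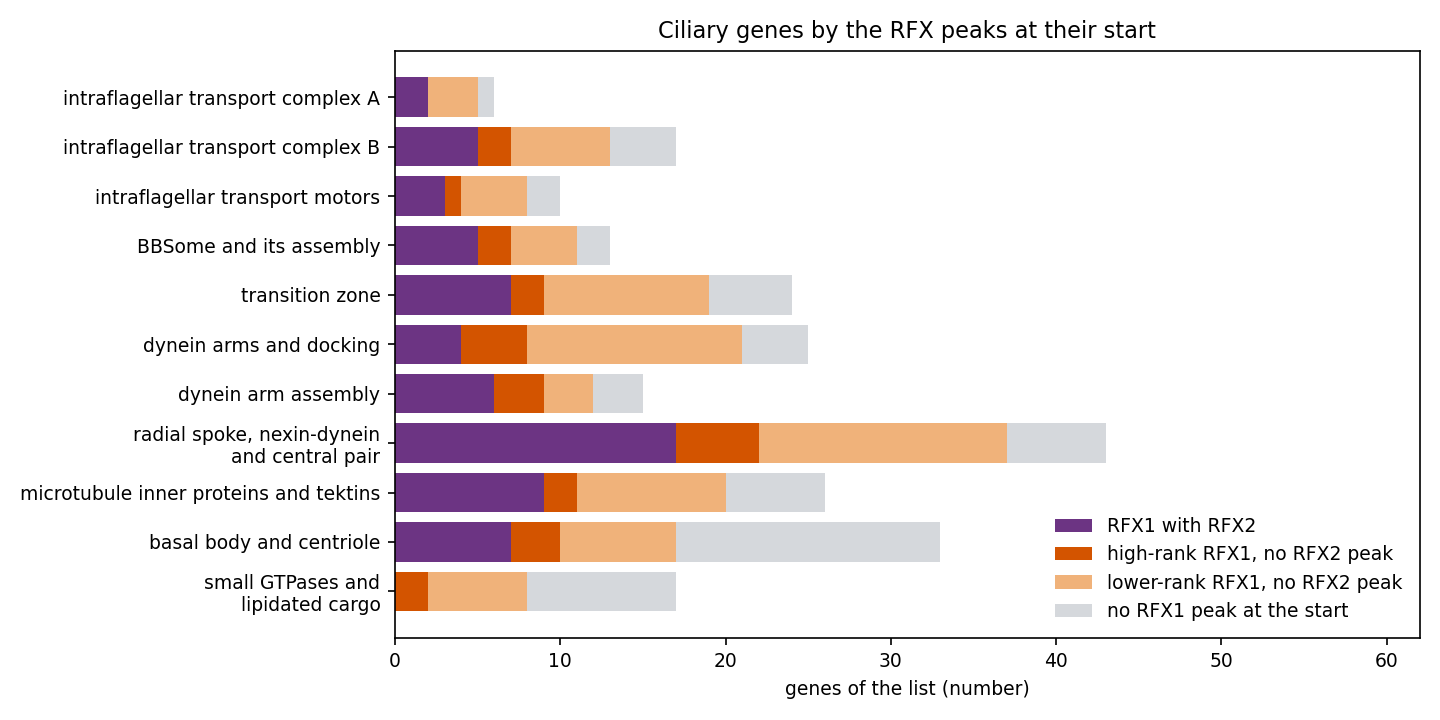
Bars count the matched genes of each of the 11 ciliary lists by what lies at the gene start: an RFX1 peak with RFX2, a high-rank RFX1 peak without RFX2, a lower-ranked RFX1 peak without RFX2, or no RFX1 peak. Radial spoke, nexin-dynein and central pair genes have the most pairs, with 17 of 43, and the small GTPase list has none of 17.

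Regulators of ciliated cells came next. Foxj1, the transcription factor of motile ciliogenesis, had folds of 14.9 for RFX1 and 9.87 for RFX2 with summits 19 bp apart. It was the only gene with a pair of the 23 in the multiciliated cell list, or 1 of the 8 with RFX1 (12.5%, 0.316 to 52.7, against 23.1% of all genes with RFX1), and Ccno, a cyclin needed for centriole amplification, had a high-rank RFX1 peak alone with a fold of 10.7. Among 10 RFX genes, Rfx1 and Rfx3 had a pair at the start. At Rfx1 (chr8:84066521-84067015) the folds were 22.3 for RFX1 and 23.7 for RFX2, and at Rfx3 they were 22.1 and 27.1. Both were thus among the pairs with the higher fold for RFX2. At the start of Rfx2 itself an RFX1 peak ranked 3482 with a fold of 8.47, and no RFX2 peak was called. The lists of planar cell polarity and MHC class II genes had no RFX1 peak at a start. Notch and Hedgehog lists had 1 each, at Numb and at Iqce, both without RFX2, and of 45 ribosomal protein genes 1 had a pair (Rpl35) and 1 a high-rank RFX1 peak alone (Rpl30).

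Most marker genes of the labelled cell type held RFX1 at their starts. Of 11 ependymal markers 8 had RFX1 (72.7%), of which Foxj1 and Pifo had a pair. The share with RFX1 was 74.7% in the pooled ciliary lists and 9.15% over all protein-coding genes. Some of these markers, such as Foxj1, Ccno and Dynlrb2, also belong to the lists above, so the shares are not separate. None of the astroglial, neuronal, oligodendrocyte, choroid plexus and microglial markers (8, 8, 7, 5 and 5 genes) had an RFX1 peak at the start. A peak at a start does not measure expression, so this does not test the cell type.

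Across chromosomes, the share of RFX1 peaks with RFX2 was between 13.1% and 19.8% on autosomes. On chromosome X it was 13 of 161 (8.07%, 4.37 to 13.4). The interval for chromosome X overlaps those of several autosomes.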

How the data were processed

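Binding of RFX1, RFX2 and RFX3 was measured by ChIP-seq in 11 samples, of which 8 belong to RFX1 and RFX2. MACS2 2.0.10.20130520, Bowtie 0.12.7, CASAVA 1.8.2 and build GRCm38 appear in the submitters' processing notes, with no roles. The authors deposited 1 list of reproducible peaks per factor. Its score is 10 times the −log10 q, its fold enrichment is a ratio to background, and its −log10 q and summit offset are the authors' own; total reads are unknown, and 1 value column per list (−log10 p) was not used. Here peaks were paired by a shared bp, ranked by −log10 q, and placed against RefSeq genes and starts of GRCm38.p6 (17492 protein-coding genes had a tabled start; 4395 were placed by either end). Python 3.11.15, pandas 2.3.3 and scipy 1.17.1 were used, and the pairing was tested on simulated peaks. No test between conditions was possible. Of 415 list genes, 410 matched.

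Named were: the 10 best pairs by summed percentile rank, the 10 most weighted to each factor, the 20 and 10 best RFX1 peaks without RFX2 at and away from starts, the best 5 RFX2 peaks without RFX1, the 5 largest shifts, and up to 4 genes per list and class. The widest RFX2 peak, the RFX2 peak with 2 partners and the promoters shown were chosen after their values were seen, the promoters by RFX1 rank. Members, lists and rules were chosen with earlier results of these data known. The strand of genes without a tabled start was not used. Alternatives covered overlap, rank value, list length, window and motif letters.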

Additional observations from a re-analysis of the deposited data

How the results depend on the processing

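No paired analysis was possible because each factor has 1 merged list, which carries no replicate; none could be left out. Requiring overlap of 50% of each peak, summits inside each other or pairs of 1 partner each kept the direction of every result recomputed that way. With both lists at 1250 peaks, 68.5% of RFX2 peaks and 68.5% of RFX1 peaks had a partner, summits within 25 bp rose to 78.2% of pairs, and the fold ratio at starts minus elsewhere was −0.0668. Ranked by fold enrichment, rho was 0.423, the RFX2 rank was the better in 37.0% of pairs at starts, 40.2% of high-rank RFX1 peaks lacked RFX2, and their genes numbered 165 instead of 266. Among the best 500 and 2500 RFX1 peaks, 11% and 54.6% lacked RFX2. The share at a start, with RFX2 minus without, was 10 percentage points over all RFX1 peaks and reversed to −16.1 within the high-rank ones. The latter was −11.9 with a 5 kb window, −21.1 in the best 500, −5.54 in the best 2500, and reversed to 4.21 when ranked by fold. The RFX3 share with RFX2 minus without was 28.3 points with 50% overlap and 1.31 within high-rank peaks. The X-box difference of 11.1 points became −0.938 with the looser pair. Alternatives chosen after seeing the data were either end of every gene, the looser pair and the settings for the high-rank position. The cause of these shifts was not tested. Reads per list are unknown, so depth, antibody, sample and binding cannot be told apart where an RFX2 peak is missing.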
